A study of Mus musculus with 6 samples.

Results

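The forkhead transcription factors are proteins that bind DNA through a shared winged-helix domain and are named Fox with a letter and a digit. Their genes were followed in mouse fetal gonadal somatic cells (soma) and in an embryonic stem cell line (ESC). They were found by matching the transcript identifier of each array probe to a gene symbol that starts with Fox, 1 letter and a digit. This gave 44 symbols on 55 probes, out of 19751 named genes on 39429 gene probes. Of these symbols, 42 are forkhead genes, measured by 52 probes, and the other 2 are non-coding RNAs, Foxd2os and Foxl2os, with 3 probes. The matching rule reads symbols alone.

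RNA from soma was compared with RNA from ESC on 6 Agilent mouse arrays with the dye Cy3 alone, 3 per group, and the design text describes the 3 samples of a group as biological replicates. Soma were somatic cells of male genital ridges at stage E13.5, on the labelled background MCH x C57BL6/J with the transgene written Oct5<delta>PE-GFP Tg. ESC were the male line VR15, labelled Vasa::RFP Tg, so that the ESC group rests on 1 line. The series was titled for energy metabolism in primordial germ cells. It compares a differentiated tissue with a pluripotent line, and each group carries a different reporter transgene. Stage, strain, culture and cell type cannot be told apart in this comparison.

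Forkhead factors act in nearly every lineage. Some open closed chromatin and set up tissue identity, as the FOXA and FOXC factors do. The FOXO factors are held in the cytoplasm when insulin or growth factor signalling activates the kinase AKT, and FOXM1 drives genes of cell division. In embryonic stem cells FOXD3 helps to hold the pluripotent state and FOXH1 carries Nodal signals together with SMAD2 and SMAD4. In the gonad FOXL2 is known as the factor that maintains the ovarian supporting cells.

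A level below is the log2 of the scanner's processed signal less the 75th percentile of its array, so that 0 stands for the brightness of that percentile. A difference is soma minus ESC on this scale, with its SE. A probe was kept when the scanner software marked it well above background on all arrays of at least 1 group, and the brightest of a gene's kept probes stood for the gene. Where no array of 1 group had this mark for a gene, its change is given as a bound, "at least N-fold". The bound sets the mean of the brighter group against the mean, over the arrays of the dimmer group, of the higher of the probe's own level and the lowest level marked well above background on that array. Adjusted p-values are from limma with Benjamini-Hochberg adjustment over all 24150 kept probes, and a gene passed when this value was under 0.05. Levels of different probes are not compared, because probes differ in how well they bind.

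The forkhead genes divided into a set that was higher in soma, led by Foxc2, Foxs1, Foxc1 and Foxd2, and a larger set that was lower, led by Foxn4, Foxd3 and Foxh1. Of the 42 genes, 28 were kept and 14 were not. Among the 28, 9 were higher in soma (32.1%, against 40.6% of the 14203 named genes tested) and 15 were lower (53.6%, against 46.1%), while 4 did not pass. In either direction 24 passed, which is 85.7% against 86.8% of all genes, so that passing the test was as common among forkhead genes as in the whole table. Changes of at least 2-fold were found for 17 genes (60.7%, against 49.1%), 7 of them higher in soma (against a background of 24.6%) and 10 lower (against 24.5%). The bound for Foxi3, counted among the 10, lies under 2-fold. The 2 groups did not overlap for 26 of the 28 kept genes, and this held for 89.4% of all genes.

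The median difference of the 28 genes was -0.32, beside -0.10 over all genes tested, and their median absolute difference was 1.68, beside 0.99. Counts over kept genes, and the sizes of their differences, are shaped by the filter. It kept 3 genes through soma alone (Foxc2, Foxd2 and Foxl1) and 5 through ESC alone (Foxi3, Foxa1, Foxr2, Foxd3 and Foxn4), and such genes had to differ. Of the 16 genes well above background on all 6 arrays, 5 were higher in soma (37.8% of 11959 such genes in the whole table), 7 were lower (48.1%) and 4 did not pass. Their median difference was 0.10, beside -0.16 for all such genes, and their median absolute difference was not computed. With the mark required on all 6 arrays, 3 forkhead genes were higher and 3 lower by at least 2-fold, against 7 and 10. The share of all genes with such changes was not computed under this filter, so the drop cannot be set against a background. In these bulk samples fewer cells of a type and less RNA per cell cannot be told apart.

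**Figure D1:**
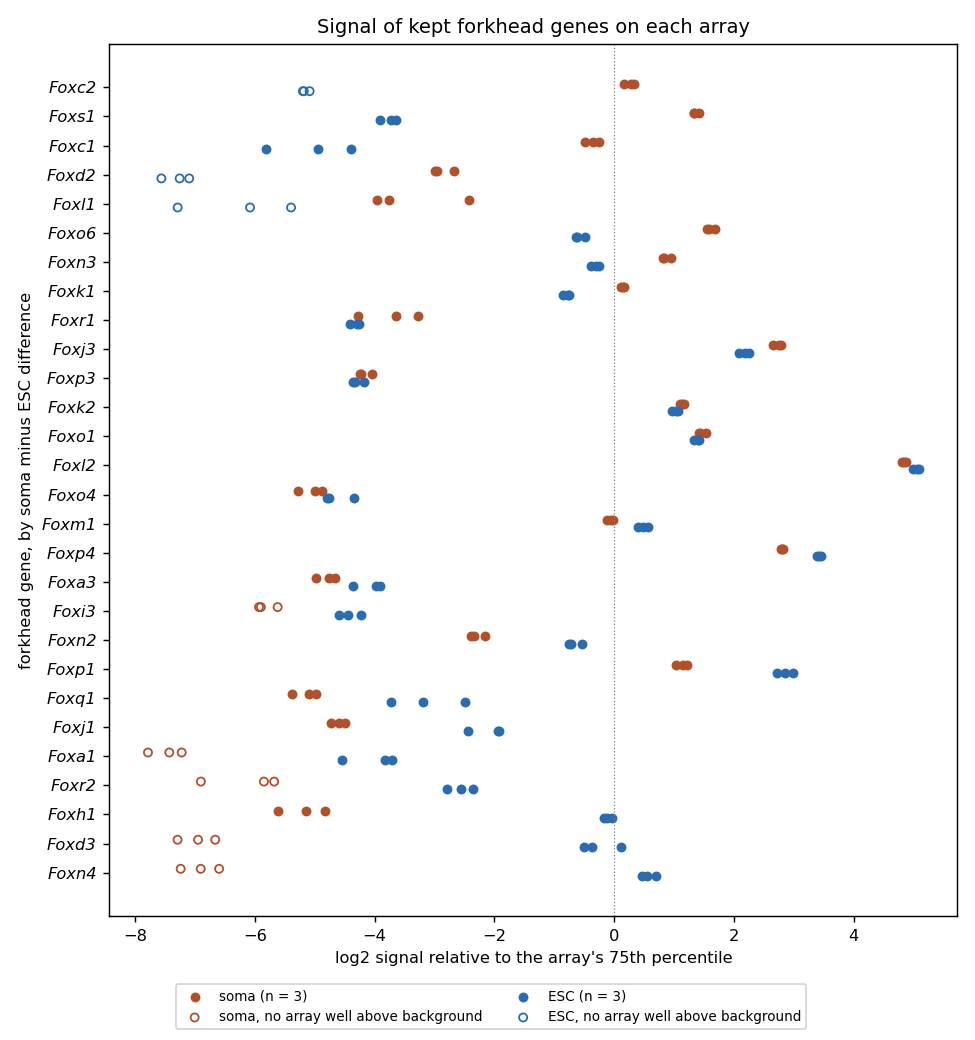
Level of each kept forkhead gene on every array, as log2 of processed signal relative to the array's 75th percentile, with soma and ESC in separate symbols. Open symbols mark genes with no array of that group above background, such as Foxn4 in soma and Foxc2 in ESC, and the arrays of a group lie close together except for dim genes such as Foxl1.

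**Figure D2:**
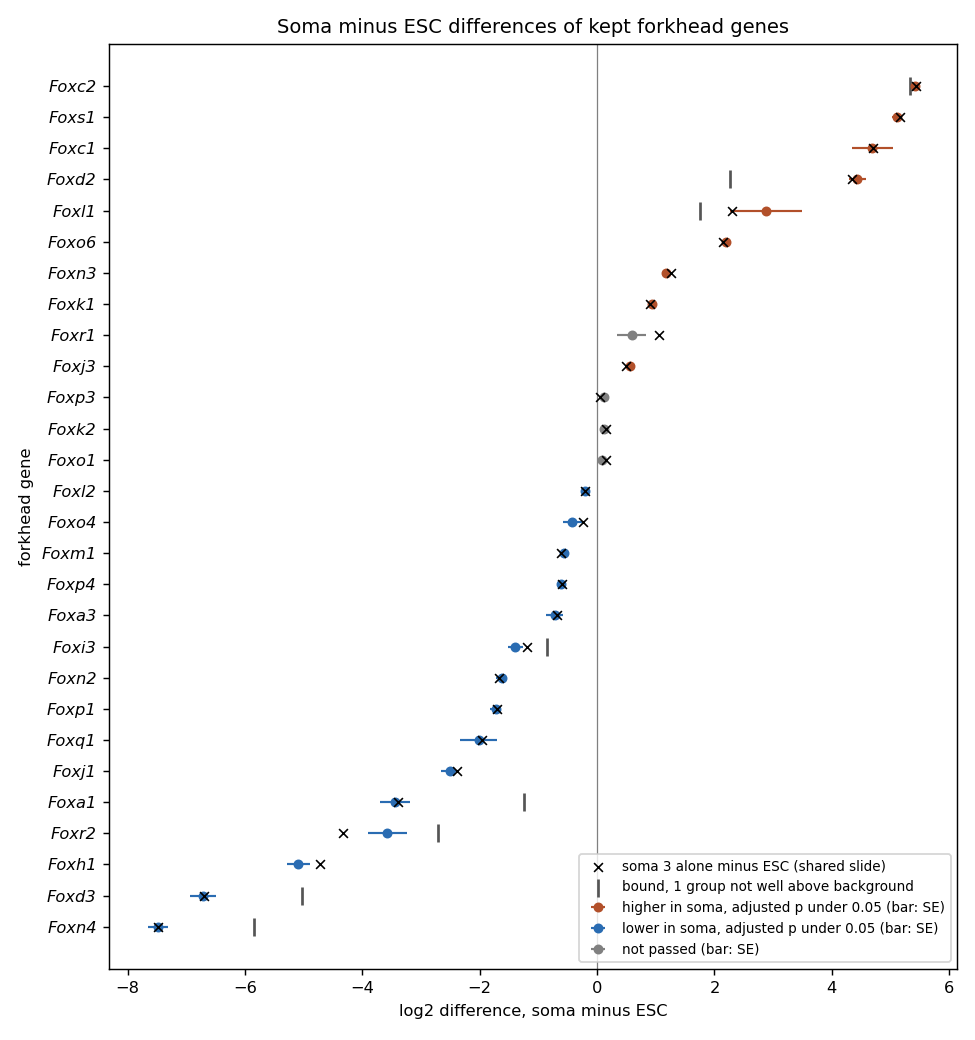
Difference, soma minus ESC in log2 units with its SE, for the 28 kept forkhead genes, ordered by size, with crosses for soma 3 alone minus ESC and upright ticks for bounds. They run from 5.42 for Foxc2 to -7.48 for Foxn4, and 4 genes did not pass the test.

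**Figure D3:**
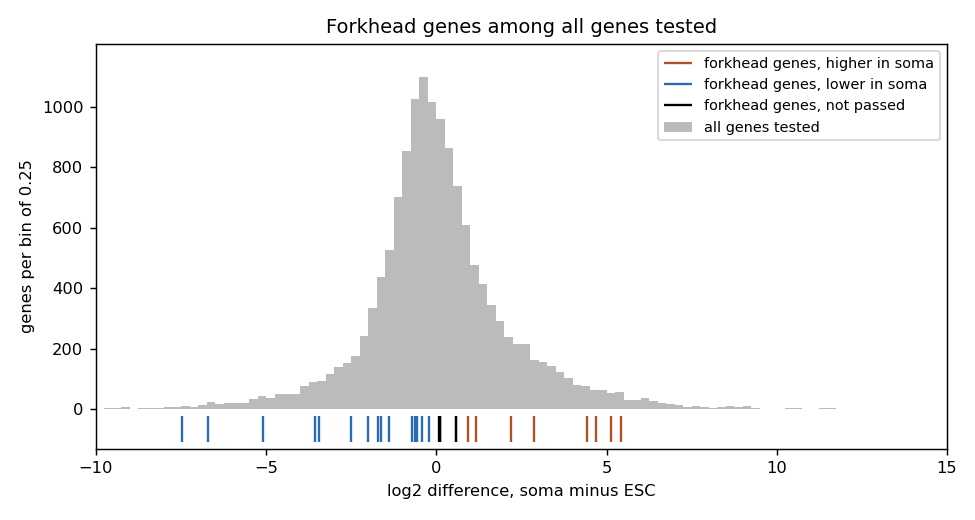
Distribution of the log2 difference, soma minus ESC, over the 14203 named genes tested, with the forkhead genes marked. The median of all genes is -0.10 and the forkhead genes are spread over both sides of it.

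Soma 1 and soma 2 lay on one slide, while soma 3 shared the other slide with the 3 ESC arrays. Soma 1 and 2, soma 3 and the ESC arrays were scanned at 3 different times, so that scan and group cannot be told apart. The difference of soma 3 from ESC on the shared slide is therefore given for the genes that matter, with soma 3 assumed to vary like the other arrays. On the shared slide 6 of the 7 genes higher in soma by at least 2-fold passed, as did 10 of 10 lower genes, beside 78.9% of all genes in either direction. Those forkhead genes were chosen by call and size in a fit that already held every array of this slide. The 78.9% is taken over all genes tested, whatever their call or size. The shares therefore cannot be set against each other, and they are no separate test of the forkhead calls. Before scaling, the 75th percentile of the signal averaged 1323 ± 72.6 intensity units in soma and 983 ± 29.3 in ESC (SD, n = 3 each). The exact permutation test gave p = 0.1, the smallest value that 3 against 3 arrays allow. The share of gene probes with the above-background mark ranged from 56.0% to 63.2% over the arrays, and saturation was marked nowhere.

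The cells' labels were set against marker genes. All 10 tested markers of Sertoli cells, 4 of 4 of fetal Leydig cells and 10 of 10 of interstitial stroma were higher in soma, and 10 of 10 pluripotency markers were lower. Markers of blood cells were high in soma too. Erythroid markers were higher for 7 of 7 tested genes, with a summed level of 928 to 1007 times the array's 75th percentile in soma and 0.18 to 0.21 in ESC, and leukocyte markers were higher for 7 of 7, with sums of 7.90 to 8.52 in soma and 0.76 to 1.0 in ESC. Ptprc, a defining marker of leukocytes, was not kept. Markers of germ cells differed between the soma samples, with a median level of -1.23, -0.53 and 0.08 on soma 1 to 3 and a sum of 4.13 to 8.26 in soma against 11.8 to 13.0 in ESC. Among 7 tested germ cell genes 2 were higher, 2 lower and 3 did not pass.

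Foxc2, Foxs1, Foxc1, Foxd2 and Foxl1 were higher in soma, with Foxc2, Foxd2 and Foxl1 known by their bounds alone. Foxc1 and Foxc2 are close relatives that act in mesoderm, where they are needed for vessels, kidney and skeleton. Foxs1 is expressed in pericytes and neural crest derivatives, Foxd2 in mesenchyme of the developing kidney and face, and Foxl1 in mesenchyme of the gut. To show the start sites of the 4 genes with the largest fitted differences, 2 in each direction, among those in the RefSeq promoter table, the 300 bases around the start of Foxc1 and Foxd2, higher in soma, and of Foxd3 and Foxn4, lower in soma, are printed here, 250 before and 50 after the start, on the gene's own strand. They are RefSeq sequences of GRCm38.p6. Capitals mark a CCAAT box (CCAAT) or a GC box (GGGCGG) on either strand, and no base in these sequences belongs to more than 1 match.
Foxc1: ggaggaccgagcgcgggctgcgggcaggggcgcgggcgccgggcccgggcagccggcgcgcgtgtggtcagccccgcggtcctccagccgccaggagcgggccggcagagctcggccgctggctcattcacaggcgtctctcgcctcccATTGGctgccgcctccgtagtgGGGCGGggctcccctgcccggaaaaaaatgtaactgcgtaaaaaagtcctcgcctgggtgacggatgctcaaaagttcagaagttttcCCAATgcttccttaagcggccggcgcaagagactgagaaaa
Foxd2: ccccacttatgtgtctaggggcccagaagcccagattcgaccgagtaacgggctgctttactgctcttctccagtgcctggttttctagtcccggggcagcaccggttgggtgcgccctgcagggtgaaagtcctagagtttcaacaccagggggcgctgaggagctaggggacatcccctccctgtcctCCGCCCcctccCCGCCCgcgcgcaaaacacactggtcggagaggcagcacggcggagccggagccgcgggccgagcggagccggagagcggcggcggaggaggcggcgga
Foxd3: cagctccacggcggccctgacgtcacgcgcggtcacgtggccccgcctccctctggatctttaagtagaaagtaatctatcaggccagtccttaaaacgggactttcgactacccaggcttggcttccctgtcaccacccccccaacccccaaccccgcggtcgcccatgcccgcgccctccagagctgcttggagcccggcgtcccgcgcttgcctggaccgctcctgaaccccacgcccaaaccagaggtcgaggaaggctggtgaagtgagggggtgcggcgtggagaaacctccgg
Foxn4: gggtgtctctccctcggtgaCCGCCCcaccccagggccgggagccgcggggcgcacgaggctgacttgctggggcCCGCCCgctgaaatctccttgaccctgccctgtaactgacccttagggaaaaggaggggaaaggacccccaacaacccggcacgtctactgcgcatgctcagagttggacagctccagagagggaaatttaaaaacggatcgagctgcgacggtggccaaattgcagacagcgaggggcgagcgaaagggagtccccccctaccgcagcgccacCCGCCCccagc
The Foxc1 window lies at chr13:31806396-31806695 on the plus strand, that of Foxd2 at chr4:114908849-114909148 on the minus strand, that of Foxd3 at chr4:99656049-99656348 on the plus strand and that of Foxn4 at chr5:114273712-114274011 on the minus strand.

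All 4 windows were rich in G and C whether the gene was higher or lower in soma. The share of G and C was 67.3% for Foxc1 and 67.7% for Foxd2, and it was 65.7% for Foxd3 and 65.3% for Foxn4. The median over 30 promoters of 27 forkhead genes was 62.8%, against 52.7% over all 32851 promoters of the table. CpG dinucleotides stood at 0.68 of the number expected from base composition in forkhead promoters and 0.38 in all promoters, as medians. A GC box was found in 21 of 30 forkhead promoters (35.7% of all promoters have one) and a CCAAT box in 14 of 30 (37.4%). The TATA box TATAAA was found in 2 (13.6%) and the forkhead core motif GTAAACA in 1, that of Foxa1 (3.65%). A match of letters is a description and does not show a bound site.

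Foxc2 stood at 0.34, 0.16 and 0.28 on soma 1 to 3 and at -5.20, -5.18 and -5.08 on ESC 1 to 3. In ESC it did not reach the above-background mark. The change was at least 40.1-fold higher in soma (difference 5.42 ± 0.07, adjusted p = 1.61e-07 by limma), and soma 3 alone differed from ESC by 5.43. Foxs1 was above background in both groups, at 1.33, 1.33 and 1.41 on the soma arrays and -3.91, -3.72 and -3.64 on the ESC arrays. It was 34.7-fold higher in soma (5.12 ± 0.08, adjusted p = 2.14e-07 by limma). The spread within each group was far smaller than the gap for both genes.

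Foxc1 had levels of -0.25, -0.48 and -0.34 in soma and -5.81, -4.39 and -4.94 in ESC, where 2 of 3 arrays were well above background. It was 25.8-fold higher in soma (4.69 ± 0.35, adjusted p = 3.68e-05 by limma), with most of its spread among the ESC arrays. Foxd2 was dimmer, at -2.68, -2.98 and -2.96 in soma and -7.10, -7.56 and -7.25 in ESC, where no array was well above background. The bound for Foxd2 was at least 4.80-fold higher in soma (4.43 ± 0.15, adjusted p = 1.33e-06 by limma). The groups did not overlap for either gene.

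Foxl1 was dim and variable. Its levels were -3.76, -2.43 and -3.95 in soma and -6.08, -5.39 and -7.29 in ESC, where no array was well above background. It was at least 3.37-fold higher in soma (2.87 ± 0.61, adjusted p = 0.00503 by limma), but soma 3 alone differed from ESC by 2.30 with an adjusted p of 0.0646, which did not pass.

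Foxc2 and Foxl1 are direct neighbours on chromosome 8, and both were higher in soma. Foxf1, 1 coding gene away from Foxc2, was not above background on any array. On chromosome 13 the genes Foxq1, Foxf2 and Foxc1 follow each other with no coding gene between. Within that row Foxc1 was higher in soma, Foxq1 was lower, and Foxf2 was not above background on any array. Foxe3, the direct neighbour of Foxd2 on chromosome 4, was well above background on 2 soma and 2 ESC arrays and was not kept. Neighbours were read from the order of genes in the GRCm38.p6 gene table.

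Because FOXC and FOXS factors are known from vessels and their mural cells, endothelial markers are given beside them. Of 8 tested endothelial genes 4 were higher in soma, 3 were lower and 1 did not pass, and their summed level was 11.5 to 13.95 in soma against 18.0 to 18.8 in ESC. The sums are carried by the 2 brightest genes, Egfl7 and Kdr, which differed by -0.99 ± 0.09 (adjusted p = 0.000107 by limma) and -0.26 ± 0.17 (adjusted p = 0.185). The 4 higher genes, named after their values were seen, were the junction gene Cdh5 (at least 36.9-fold higher in soma), Emcn (at least 11.2-fold), Tie1 (at least 4.76-fold) and Cldn5 (4.01-fold). The endothelial list thus held genes that were well above background in soma alone beside genes that were bright in both groups. Stromal markers were higher in soma for 10 of 10 genes, with sums of 304 to 355 in soma and 12.8 to 14.7 in ESC, and the 2 brightest were the collagen genes Col1a2 (3.97 ± 0.09) and Col1a1 (3.08 ± 0.06). The part of these cell types in the forkhead differences was not tested.

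The Hedgehog pathway, in which desert hedgehog from Sertoli cells acts on neighbouring fetal Leydig and peritubular cells, is one that forkhead genes of mesenchyme are known to follow. Of 17 tested pathway genes out of 19 listed, 14 were higher in soma (82.4%, against 40.6% of all genes), 2 were lower (11.8%, against 46.1%) and 1 did not pass, with a median difference of 1.27 beside -0.10. Dhh, the ligand, had the largest increase (7.67 ± 0.16) and Hhip, which binds the ligand and limits it, came next (5.97 ± 0.15). The 2 lower genes were Sufu, an inhibitor of the GLI factors (-1.52 ± 0.37), and Bmp4 (-1.03 ± 0.11). On the shared slide alone Sufu no longer passed (-1.73, adjusted p = 0.064). Ptch1 and Gli1, target genes of the pathway that are named after their values were seen, were higher by 1.08 ± 0.09 and 1.27 ± 0.07. Dhh is also one of the Sertoli cell markers.

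Foxn4, Foxd3 and Foxh1 were far lower in soma, each by a fold or bound of 32.5 or more. Foxd3 and Foxh1 are factors of pluripotent and early embryonic cells. Foxn4 is best known for retinal and spinal interneuron progenitors. Its levels were -6.60, -7.24 and -6.90 in soma, where no array was well above background, and 0.47, 0.56 and 0.69 in ESC. Foxn4 was at least 57.5-fold lower in soma (-7.48 ± 0.17, adjusted p = 4.59e-07 by limma).

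Foxd3 stood at -6.66, -7.29 and -6.95 in soma, again with no array well above background, and at 0.12, -0.50 and -0.37 in ESC. It was at least 32.5-fold lower in soma (-6.72 ± 0.22, adjusted p = 1.36e-06 by limma). Foxh1 had -5.62, -5.15 and -4.83 in soma, where 2 of 3 arrays were well above background, and -0.17, -0.04 and -0.11 in ESC. It was 34.1-fold lower in soma (-5.09 ± 0.20, adjusted p = 2.39e-06 by limma). Among the soma arrays Foxh1 was lowest on soma 1 and highest on soma 3, the same order as the germ cell markers, and the part of germ cells in this was not tested. Pluripotency markers summed to 8.35 to 11.3 in soma and 413 to 446 in ESC.

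Foxh1 is the forkhead factor of the Nodal pathway, in which Nodal binds activin receptors and the signal reaches FOXH1 through SMAD proteins. Of 18 listed genes, all tested, 7 were higher in soma (38.9%, against 40.6% of all genes) and 11 were lower (61.1%, against 46.1%), with a median difference of -0.67 beside -0.10. The largest fitted decreases were in Gdf3, a ligand of the family (-6.93 ± 0.14), and Eomes, a target not above background in soma that was at least 30.0-fold lower (-6.32 ± 0.32). The largest fitted increases were in Acvr1c, a type I receptor not above background in ESC that was at least 4.11-fold higher (3.29 ± 0.66), and Smad3, which was 6.33-fold higher (2.66 ± 0.08). Bounds and folds have no order among them here. Nodal and Lefty1, its feedback inhibitor, are named after their values were seen and were 78.1-fold (-6.29 ± 0.08) and 66.2-fold lower (-6.05 ± 0.11). Acvr1c no longer passed on the shared slide alone (3.17, adjusted p = 0.0679).

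Foxr2, known in human cells as a factor that stabilises MYC, stood at -5.68, -5.85 and -6.90 in soma, with no array well above background, and at -2.35, -2.56 and -2.79 in ESC. It was at least 6.51-fold lower in soma (-3.57 ± 0.34, adjusted p = 0.000111 by limma). Its relative Foxr1 did not pass. Foxr1 had -4.28, -3.65 and -3.27 in soma and -4.29, -4.41 and -4.25 in ESC, so that soma 1 lay inside the ESC range while soma 2 and 3 lay above it. The difference was 0.59 ± 0.25 (adjusted p = 0.0688 by limma). Without soma 1 it was 0.86 with an adjusted p of 0.00248, and soma 3 alone differed by 1.05 with an adjusted p of 0.00185, where the single array is assumed to vary like the others. With soma 1 kept it passed under spike-in scaling (0.80, adjusted p = 0.0191). It also passed with slide as a fixed block (1.05), where the difference rests on soma 3. The SD of Foxr1 was 0.51 in soma and 0.08 in ESC (n = 3 each). As with Foxh1, the order of the soma arrays was that of the germ cell markers. The same order was seen for Foxj1, Foxo4, Foxp4 and Foxn3, and the part of germ cells in it was not tested. For Foxp4 the soma arrays ran only from 2.79 to 2.82, and for Foxn3 soma 1 and 2 were nearly equal. These genes were named after their values were seen, and the share of all genes with this order was not computed.

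Foxa1 opens chromatin in endoderm and glands. It had -7.22, -7.78 and -7.43 in soma, with no array well above background, and -4.55, -3.72 and -3.83 in ESC. Foxa1 was at least 2.36-fold lower in soma (-3.45 ± 0.26, adjusted p = 3.94e-05 by limma). Foxa3, a liver and gut factor that also has a role in the testis, was lower by a smaller amount (-0.72 ± 0.15, adjusted p = 0.00428), with levels from -4.98 to -4.66 in soma and -4.36 to -3.90 in ESC. On the shared slide alone Foxa3 no longer passed (-0.68, adjusted p = 0.0501). Foxq1, a factor of hair and epithelia, had -4.98, -5.38 and -5.10 in soma, where 1 of 3 arrays was well above background, and -3.72, -2.50 and -3.19 in ESC. It was 4.05-fold lower in soma (-2.02 ± 0.31, adjusted p = 0.00119 by limma). Of 5 tested genes of mesonephric epithelium 5 were lower in soma, beside 46.1% of all genes. Among them Pax8 and Lhx1 were dim in soma (means of -4.57 and -5.07), and Lhx1 was well above background on 1 soma array only. Pax2 and Cdh16, defining genes of that epithelium, were not kept.

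Foxj1 is the factor that switches on the genes of motile cilia. It stood at -4.74, -4.59 and -4.49 in soma and -2.44, -1.92 and -1.93 in ESC, with all arrays well above background. Foxj1 was 5.68-fold lower in soma (-2.51 ± 0.16, adjusted p = 1.79e-05 by limma). Of 4 tested genes of ciliated epithelium 3 were lower and 1 did not pass, and the brightest were Tekt1 (-3.67 ± 0.07) and Rsph1 (-1.71 ± 0.11). Their summed level was 0.37 to 0.43 in soma and 2.15 to 2.39 in ESC. Ccdc39 and Dnah5, parts of motile cilia, were not kept, so that the list itself was measured in part only.

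Foxi3, needed for ear and tooth, had -5.90, -5.93 and -5.62 in soma, with no array well above background, and -4.59, -4.44 and -4.23 in ESC. The bound for Foxi3 was at least 1.81-fold lower in soma (-1.40 ± 0.13, adjusted p = 9.21e-05 by limma). It was dim in ESC too, and the groups did not overlap.

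Foxp1 and Foxn2 were lower in soma at levels well above background on every array. Foxp1 is a repressor of the FOXP group, and a stem cell splice form of it has been described. Its brightest probe stood at 1.22, 1.03 and 1.14 in soma and 2.99, 2.86 and 2.72 in ESC, a 3.31-fold lower level (-1.73 ± 0.09, adjusted p = 7.72e-06 by limma). A further kept probe of Foxp1 gave -1.85 ± 0.08 and the remaining one was not above background on any array, so splice forms could not be compared. Foxn2 had -2.39, -2.15 and -2.34 in soma and -0.54, -0.76 and -0.72 in ESC, a 3.08-fold lower level (-1.62 ± 0.09, adjusted p = 1.08e-05 by limma).

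Foxn3, a repressor linked to cell cycle checkpoints, went the other way from Foxn2 and Foxn4. Its levels were 0.82, 0.83 and 0.95 in soma and -0.25, -0.30 and -0.39 in ESC, which is 2.26-fold higher in soma (1.18 ± 0.07, adjusted p = 9.53e-06 by limma). Foxk1, a repressor of autophagy and muscle genes, was 1.91-fold higher (0.94 ± 0.05, adjusted p = 9.14e-06), and Foxj3, an activator of Mef2c in muscle, was 1.48-fold higher (0.56 ± 0.07, adjusted p = 0.000292). Foxk2, the relative of Foxk1, differed by 0.12 ± 0.05 and did not pass (adjusted p = 0.0778), with levels of 1.11 to 1.17 in soma and 0.96 to 1.06 in ESC that did not overlap. Foxk2 passed after quantile normalization (0.21, adjusted p = 0.0103) and with spike-in scaling (0.33, adjusted p = 0.0162). The lowest value of Foxk2 over the alternatives was -0.08, so its direction depended on the setting. Foxp4, of the same group as Foxp1, was 1.53-fold lower in soma (-0.62 ± 0.04, adjusted p = 3.31e-05). A further probe of Foxp4 gave -0.63 ± 0.05, and its dimmest kept probe gave 0.20 ± 0.10, which did not pass (adjusted p = 0.104).

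The FOXO genes did not move together. Foxo6, which differs from the other FOXO factors in that it shuttles little between nucleus and cytoplasm, was the only member to change by 2-fold or more, among the 3 that were kept. Its brightest probe stood at 1.68, 1.59 and 1.56 in soma and -0.48, -0.64 and -0.62 in ESC. It was 4.56-fold higher in soma (2.19 ± 0.07, adjusted p = 1.06e-06 by limma), and its dimmer probe, not well above background on any ESC array, gave at least 2.28-fold (2.35 ± 0.31). The groups were far apart on both probes.

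Foxo1, the member best known from insulin action, had 1.43, 1.42 and 1.53 in soma and 1.41, 1.34 and 1.40 in ESC. The difference of 0.08 ± 0.06 did not pass (adjusted p = 0.244 by limma), and neither did that of its other probe (-0.06 ± 0.05, adjusted p = 0.303). On the brightest probe all soma arrays lay above the ESC arrays, and on the other the groups overlapped. Foxo1 passed after quantile normalization (0.22, adjusted p = 0.00652) and with spike-in scaling (0.29, adjusted p = 0.0116). Its lowest value over the alternatives was -0.12, so its direction depended on the setting.

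Foxo4 had -5.27, -5.00 and -4.88 in soma, where 2 of 3 arrays were well above background, and -4.79, -4.76 and -4.34 in ESC. Its difference of -0.42 ± 0.16 passed narrowly (adjusted p = 0.0487 by limma), and it no longer passed when soma 1, soma 2 or any 1 of the ESC arrays was left out. Foxo3, the member that restrains ovarian follicles, was not kept. Its levels were -5.42, -4.24 and -4.73 in soma and -5.06, -4.52 and -4.72 in ESC, with 2 arrays of each group well above background, and the groups overlapped.

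Genes that control FOXO proteins, those of the PI3K and AKT route among them, were tested as 28 genes. Of these, 12 were higher in soma (42.9%, against 40.6% of all genes) and 16 were lower (57.1%, against 46.1%). The median difference was -0.46 beside -0.10 for all genes. The largest increases were in Irs1, an adaptor of the insulin receptor (3.72 ± 0.17), and Stk3, a kinase that acts on FOXO proteins (3.09 ± 0.11). The largest decreases were in Sgk1, a kinase that phosphorylates FOXO3 (-4.34 ± 0.08), and Sfn, a member of the 14-3-3 proteins, which bind phosphorylated FOXO (-4.07 ± 0.18). Akt1, named after its value was seen, was higher in soma by 2.67 ± 0.11.

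Of 30 FOXO target genes tested out of 34 listed, 14 were higher in soma (46.7%, against 40.6% of all genes), 15 were lower (50%, against 46.1%) and 1 did not pass. These shares lie near those of the whole table, and the median difference was -0.17 beside -0.10. The medians of the 5 pathway lists were the same with bounded genes at their bound. Pck1, the key enzyme of glucose formation in liver, was at least 1.62-fold higher (2.91 ± 0.18), and the cyclin gene Ccnd2, which FOXO factors are known to repress, was higher by 2.26 ± 0.06. The cell cycle inhibitor gene Cdkn1a (-4.43 ± 0.07) and the cell death gene Bbc3 (-4.04 ± 0.06) had the largest decreases. These genes also answer to other factors, such as p53 for Cdkn1a and Bbc3.

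Foxm1, the forkhead factor of the G2 and M phases of the cell cycle, was lower in soma by a modest amount. It had -0.06, -0.03 and -0.12 in soma and 0.41, 0.49 and 0.57 in ESC, with no overlap. This was 1.47-fold lower in soma (-0.56 ± 0.06, adjusted p = 0.000251 by limma). The dimmer of its 2 kept probes gave the same difference (-0.56 ± 0.11, adjusted p = 0.00375 by limma), with levels of -4.06 to -3.69 in soma and -3.31 to -3.21 in ESC.

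Among 29 tested genes that FOXM1 controls or works with in mitosis, 24 were lower in soma (82.8%, against 46.1% of all genes), 2 were higher (6.90%, against 40.6%) and 3 did not pass. Their median difference was -1.04, beside -0.10 for all genes. Mybl2, a partner of FOXM1 (-4.28 ± 0.07), and Nek2, a centrosome kinase (-1.91 ± 0.06), had the largest decreases, and Plk1, a mitotic kinase named after its value was seen, differed by -1.65 ± 0.09. The phosphatase gene Cdc25b (0.70 ± 0.05) and the proliferation marker Mki67 (0.35 ± 0.04) were the 2 higher genes. With the array median in place of the 75th percentile Mki67 no longer passed (0.15, adjusted p = 0.0675).

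Foxl2 gave a bright and nearly equal signal in both groups. Its kept probe stood at 4.87, 4.80 and 4.84 in soma and 5.09, 4.99 and 5.07 in ESC. The difference of -0.21 ± 0.05 passed (adjusted p = 0.00947 by limma), but its direction depended on the scaling: it was 0.44 after quantile normalization and -0.0005 with spike-in scaling (adjusted p = 0.996). On the shared slide alone it did not pass (adjusted p = 0.0885). The other Foxl2 probe reached the mark on no array. What the bright probe detects was not tested. Of 5 tested genes of ovarian supporting cells 3 were higher in soma and 2 were lower, and the brightest were Rspo1 (2.19 ± 0.07) and Fst (-5.37 ± 0.22), so the list had no single direction.

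Foxp3, the factor of regulatory T cells, was dim and did not pass, with levels of -4.25 to -4.04 in soma and -4.37 to -4.17 in ESC that overlapped (0.12 ± 0.09, adjusted p = 0.233 by limma). Leukocyte markers were higher in soma, as given above.

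**Figure D4:**
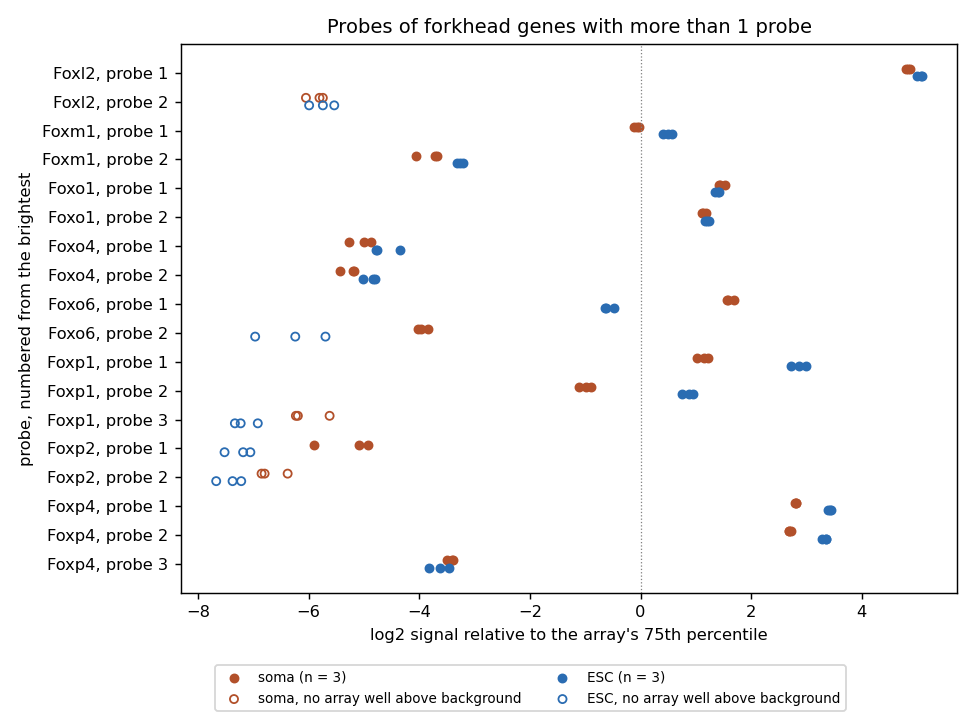
Level of every kept and not kept probe of the forkhead genes with several probes, in log2 units relative to the array's 75th percentile, for soma and ESC. Solid symbols have at least 1 array of that group well above background and open symbols have none, and Foxl2 has 1 bright probe and 1 with open symbols only.

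Probes of 1 gene gave the same direction for Foxm1, Foxo6 and Foxp1, and no forkhead gene had kept probes that passed in opposite directions. Over all genes 350 of 3553 with several kept probes (9.85%) had such probes. Only 5 forkhead genes had several kept probes, so this was a small set.

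The 14 forkhead genes that were not kept have no test. Foxb1, Foxb2, Foxd1, Foxd4, Foxe1, Foxf1, Foxf2, Foxi1, Foxi2 and Foxn1 were not well above background on any of the 6 arrays. This set holds factors of brain, gut mesenchyme, kidney, ear and thymus. Foxe3, Foxj2, Foxo3 and Foxp2 were well above background on some arrays. Foxj2 was so on 1 soma and 1 ESC array, and Foxp2, a factor of brain and lung, on 1 soma array. Of the 2 non-coding RNAs, Foxd2os reached the mark on no array and Foxl2os was so on soma 3 alone.

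**Figure D5:**
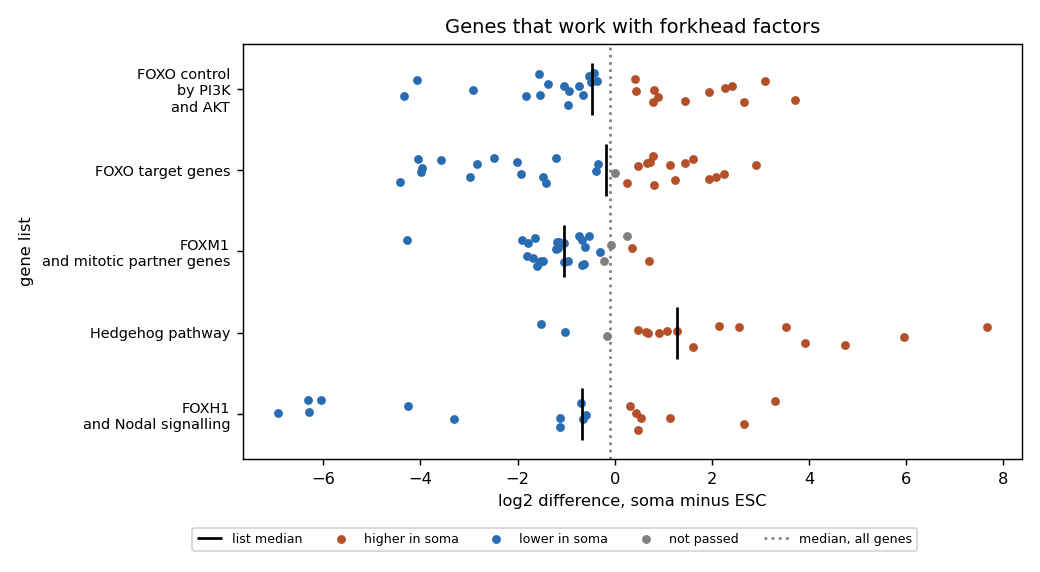
Differences, soma minus ESC in log2 units, of the tested genes of the 5 pathway lists, with each list's median. The Hedgehog list has a median of 1.27 and the FOXM1 list one of -1.04, while the FOXO lists lie on both sides of 0.

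Other settings moved few of these calls. Over 22 alternatives 604 differences of forkhead genes were recomputed, and 576 kept their side of the threshold, with the same direction where they passed. All 213 values of the genes lower by at least 2-fold did so, and 148 of 150 values of the genes higher by at least 2-fold. Genes that did not pass could change sign and still be counted in the 576. The lowest values were -0.12 for Foxo1, -0.08 for Foxk2 and -0.08 for Foxp3. With normexp background correction the differences of dim genes were smaller, for example -3.51 for Foxd3, -4.46 for Foxn4, 1.49 for Foxd2 and 0.99 for Foxl1.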

How the data were processed

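Soma and ESC were each measured on 3 arrays. The scans were read with Feature Extraction 10.7.3.1. Per the file headers, its processed signal is an intensity after background subtraction and spatial detrending, with arrays left unscaled against each other. Its marks for spots well above background, outlying or saturated are other values deposited per spot. The deposited series matrix holds log2 values. They equalled log2 of the processed signal after subtracting first the 75th percentile of the array and then the probe's median over 6 arrays, with at least 99.97% of 39429 probes within 0.01 and a correlation across probes of 0.9997 or more. The median of its column was 0.055 for soma 1, -0.25 for soma 2 and -0.0654 for soma 3, against 0.161 for ESC 1, -0.0879 for ESC 2 and 0.0634 for ESC 3. The matrix served as an alternative.

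Control spots (1377 per array) and outlying spots (180 to 223 per array) were left out, and spots of 1 probe were averaged. The outlying spots left 15 probe values with no spot at all. The log2 signal less the array's 75th percentile was fitted with limma 3.58.1 (R 4.3.3), by lmFit and eBayes with two-sided p-values, tested on simulated data. Symbols came from transcript identifiers in a RefSeq gene table of GRCm38.p6, for 66.1% of gene probes. The grid of the array design dates from an older assembly, so coordinates are those of the promoter table alone, which is of GRCm38.p6. Some genes are not reported here and are left out of the counts of members and lists.

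The members and lists were chosen with earlier results of these data known. Values on every array are given for genes that passed with at least 2-fold, for the FOXO genes and Foxm1. Each pathway list is shown by its 2 largest differences in each direction and each marker list by its 2 brightest genes, where named. Lists share some genes. Alternatives were other scalings (quantile, array median, spike-in), normexp, other filters on dim probes, other ways to join probes, the series matrix, the variance model, slide, scan and replicate number as blocks, and leaving out each array. Replicate numbers did not pair the samples: the deviations of same-numbered arrays correlated at -0.04, 0.06 and 0.02. The number of arrays, 3 per group, limits the precision, and p-values measure the spread between these samples, which for the cell line may be that of cultures.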

Additional observations from a re-analysis of the deposited data

How the results depend on the processing

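With probes required to be well above background on all 6 arrays, fewer genes were tested, and the counts of forkhead genes were 5 higher and 7 lower in soma, with 3 and 3 at least 2-fold, against 9, 15, 7 and 10. For the 2-fold counts under this filter no share over all genes was computed. In the same setting, and on the shared slide alone, 1 Hedgehog gene was lower in place of 2. The count of higher FOXM1 list genes was 4 after quantile normalization and 1 with the array median, in place of 2. Foxl2 turned to 0.44 after quantile normalization (adjusted p = 0.000293). The cause was not tested. Median scaling moved the median of all genes by -0.196 and spike-in scaling by 0.212, and quantile normalization by 0.088, so small differences depend on the scaling. Of 604 forkhead values, 18 lost and 9 gained the call. Foxo4 lost it in 12 alternatives. Among 568 values of named list genes 3 lost it: on the shared slide alone Acvr1c (3.17, adjusted p = 0.0679) and Sufu (-1.73, adjusted p = 0.064), and Mki67 with the array median. Leaving out 1 array in turn gave 9 to 10 higher and 14 to 15 lower forkhead genes, and 7 and 10 with at least 2-fold.

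With the replicate block the forkhead counts were 9, 15, 7 and 10, as without it, and 12093 of all genes passed in place of 12326. The deviations of same-numbered arrays correlated at -0.04, 0.06 and 0.02, so that the numbers are only names. Normexp used the spots' median signal. Depth on an array is signal over background, and genes near background have only bounds.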
